A study of Mus musculus with 4 samples.

Results

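Hydroxysteroid dehydrogenases and steroid reductases were followed in mouse liver with and without Shp2, the phosphatase encoded by Ptpn11 that carries receptor tyrosine kinase signals to Ras and ERK. The group held 10 genes by name: Hsd3b2, Hsd3b3, Hsd3b5, Hsd11b1, Hsd17b2, Hsd17b10, Hsd17b11, Hsd17b12, Hsd17b13 and Srd5a1. A probe belonged to the group if the platform annotation gave it 1 of these symbols, which held for 17 of the 25697 probes. Those 17 probes covered 7 of the 10 genes, of 16593 genes with a probe in all. No probe listed under Hsd3b3, Hsd17b13 or Srd5a1 was found in that annotation, and these 3 genes are named here without values. The members were chosen by the measured difference of Hsd3b5 between knockout and control liver, so that every difference between knockout and control within it is given as a description, without a test.

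Total RNA of 4 liver samples was hybridised to Illumina expression arrays, and all mice were 2 months of age and had not been fasted. The 2 controls are labelled wild type and carry floxed Shp2 (Shp2Floxed/Floxed). The 2 knockouts (Shp2hep-/-) were positive for albumin-Cre, a recombinase driven by a promoter active in hepatocytes, so that other cells of the liver are not targeted. The labels name neither strain nor sex. Those of the knockouts are numbered and those of the controls are not, and what the numbers count is not stated. Nothing states that the 2 samples of a group came from separate mice, and the spread between them may therefore be technical.

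These enzymes add or remove hydrogen at a set position of the steroid ring and so switch hormones between active and inactive forms. The liver uses them to regenerate corticosterone, to clear androgens and oestrogens, and to make bile acids. Several enzymes that carry the 17-beta name act mainly on fatty acids in mitochondria, in the endoplasmic reticulum or at lipid droplets.

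All arrays had been scaled to the same mean intensity, 1186.5 units, with medians of 242.2 to 262 units, and between 11542 and 12328 probes per array were detected above background (detection p under 0.05). Values are given as scanner intensities, which still contain background, or as normalized log2 intensities, on which each difference is knockout minus control with its standard error (SE, n = 2 per group). Ptpn11 had scanner intensities of 7094 and 7531 in the controls and of 2974 and 3246 in the knockouts on the probe ILMN_3001598, a difference of -1.33 (SE 0.18, limma adjusted p = 0.0599) that passed the test in 5 of 11 other settings with all arrays (adjusted p from 0.00166 to 0.102). Of the hepatocyte marker list, 7 of 9 genes were tested. Their summed background-corrected level was 251045 to 256349 units in the controls and 247932 to 260438 units in the knockouts. Most of it came from Ttr, Apoa1, Serpina1c and Ahsg, at log2 intensities of 15.69 to 15.93. These probes lie near the top of the intensity range, so this sum is a weak measure of hepatocyte content. Of the 7 differences, 3 lay above 0 and 4 below, with Hnf4a at -0.37 (SE 0.18) without overlap between the groups. The Alb probe was dim, at log2 intensities of 5.58 to 6.05, and was above background on 1 of the 2 control arrays and on both knockout arrays. The 10 tested of 14 macrophage markers summed to 8216 and 4631 units in the controls and to 12144.5 and 11437 units in the knockouts. The 3 tested of 6 red blood cell markers summed to 18963 and 11781 units against 30536 and 32279 units. The 7 tested of 9 stellate cell and fibroblast markers summed to 16350 and 11143 units against 19076 and 19409 units. The 8 endothelial markers, all tested, summed to 11660 and 7408 units against 9585 and 11450 units, so that the groups overlapped. Control replicate 2 thus had the lowest sum in the macrophage, red blood cell, stellate cell and endothelial lists. These sums also rest mostly on bright probes, such as those of Clec4g (endothelial), Hba-a1 (red blood cell) and Dcn (stellate). By gene, 9 of 10 macrophage and 3 of 3 red blood cell differences lay above 0. So did 7 of 7 stellate cell and fibroblast and 3 of 8 endothelial differences. The part of these cells in the results below was not tested. No probe of the adrenal markers Star, Cyp11a1, Cyp11b1, Cyp21a1 or Mc2r was detected on any array. Nr5a1, a further gene of the adrenal and gonad list, and Cyp11b2, of steroid synthesis, each had a probe detected on 1 array.

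The Hsd3b genes form a cluster on mouse chromosome 3. In the RefSeq annotation of GRCm38.p6, Hsd3b2, Hsd3b3, Hsd3b6 and Hsd3b1 follow Hsd3b5 in that order, and Hsd3b4 lies on its other side. Hsd3b2 and Hsd3b3 belong to the enzymes that oxidise a 3-beta-hydroxysteroid and move its double bond, whereas mouse Hsd3b5 works as a ketosteroid reductase that inactivates androgens and is expressed mainly in male liver. The 250 bases upstream of each annotated start are shown for Hsd3b5, for its measured neighbour Hsd3b2 and for Hsd3b3, which has no value here but shares a run of letters with Hsd3b5, with each run of at least 12 letters shared between 2 of the windows in capitals. All lie on the minus strand of GRCm38.p6 and are written 5′ to 3′, with Hsd3b5 at chr3:98645535-98645784, Hsd3b3 at chr3:98763129-98763378 (1 of its 2 windows) and Hsd3b2 at chr3:98724544-98724793.
Hsd3b5: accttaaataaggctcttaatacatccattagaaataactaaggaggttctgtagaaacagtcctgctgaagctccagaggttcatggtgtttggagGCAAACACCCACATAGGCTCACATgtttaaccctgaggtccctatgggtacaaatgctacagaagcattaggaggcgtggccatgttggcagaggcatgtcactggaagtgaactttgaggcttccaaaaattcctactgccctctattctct
Hsd3b3: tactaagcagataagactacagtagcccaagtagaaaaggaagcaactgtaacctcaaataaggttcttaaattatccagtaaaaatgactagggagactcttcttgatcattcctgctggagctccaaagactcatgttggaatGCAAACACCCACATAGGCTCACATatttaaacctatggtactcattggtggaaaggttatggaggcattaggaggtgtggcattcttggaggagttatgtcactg
Hsd3b2: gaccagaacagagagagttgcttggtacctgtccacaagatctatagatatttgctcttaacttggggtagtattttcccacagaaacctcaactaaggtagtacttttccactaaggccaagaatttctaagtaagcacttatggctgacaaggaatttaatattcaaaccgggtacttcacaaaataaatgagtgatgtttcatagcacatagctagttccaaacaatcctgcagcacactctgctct
The windows of Hsd3b5 and Hsd3b3 shared 1 such run of 24 bases, and in a pairwise alignment 60.4% of the window's bases were identical. Between Hsd3b5 and Hsd3b2 the share was 51.6%, within the 37.6% to 53.2% found for the 39 pairs of windows that involve a gene outside the cluster.

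Motifs of liver factors were looked for in the 10 upstream windows of the 9 genes that the promoter table holds, on both strands. The letters searched were TTCNNNGAA for STAT5, TTGCNNAA for C/EBP and TATAAA for the TATA box, beside the longer palindromes of the glucocorticoid receptor and of HNF1. Among these motifs, the C/EBP letters alone were found, once, as ttgcttaa in the window of Hsd17b11, from base -28 to base -21 relative to its start. Of 32536 windows of this length in the mouse table, 9.57% held the C/EBP letters, 7.04% the STAT5 letters, 12.3% the TATA letters, 0.39% the glucocorticoid receptor letters and 0.0338% the HNF1 letters. An absent motif says only that these letters are not in this window.

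Hsd3b5 was measured by 1 probe, ILMN_1234449, at scanner intensities of 6393 and 11309 units in the control samples. The knockout samples gave 623 and 736 units. Both knockout samples lay far below both controls, and the probe was detected on all 4 arrays, so that its level in knockout was low but measured. On the normalized log2 scale the values were 12.60 and 13.43 in control and 8.66 and 8.99 in knockout, a difference of -4.19 (SE 0.32), or 18.3-fold lower. Fitted differences of the 8579 genes tested were lower for Scara5 and Camk2b alone, which were detected on 1 and 0 of the 2 knockout arrays, so that the order among them is not settled. It is the value for which the group was chosen. The control samples themselves differed by 0.83 in log2 intensity, a gap wider than that of 93.5% of genes, with replicate 2 above replicate 1. Left out in turn, each array moved the difference within -4.61 to -3.78. In bulk tissue, fewer expressing cells and less RNA per cell cannot be told apart.

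**Figure D1:**
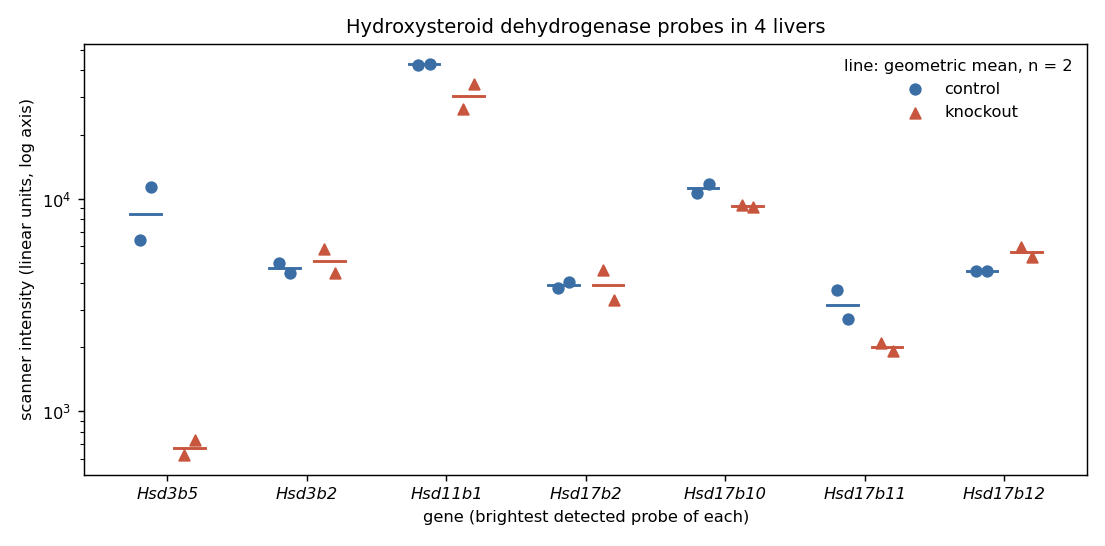
Scanner intensity (linear units on a log axis) of the brightest detected probe of each of the 7 measured genes, with a circle per control sample, a triangle per knockout sample and a line at the geometric mean of the 2 samples. For Hsd3b5 the knockouts lie at 623 and 736 units and the controls at 6393 and 11309; for every other gene the groups lie much closer together.

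Hsd3b2 had 6 probes, and 4 of them were detected on all 4 arrays. The brightest, ILMN_2898958, gave 4972 and 4489 units in control and 5789 and 4458 units in knockout. The groups overlapped on this probe, with a difference of 0.06 (SE 0.21). The next, ILMN_1214838, gave 925 and 910 units in control against 579 and 663 in knockout. Here both knockouts lay below both controls, with a difference of -0.89 (SE 0.20). The dimmer probes ILMN_1234480 and ILMN_1233611 differed by -0.41 (SE 0.20) and -0.54 (SE 0.21), also without overlap between the groups. Probes listed under 1 gene thus gave unequal differences, and with the mean of the 4 probes the difference of Hsd3b2 was -0.44. The Hsd3b transcripts are close copies of each other, which of them each probe reads was not analysed here, and the values are uncertain for that reason. The 2 other probes of Hsd3b2 were detected on at most 1 array.

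The further Hsd3b genes of the cluster were not measurable in these livers. The single probes of Hsd3b1, known from steroid-producing tissue, and of Hsd3b6 stayed below the detection threshold on all 4 arrays. Hsd3b4 was detected on 1 control array only.

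Hsd11b1 encodes the reductase that regenerates corticosterone from its inactive 11-keto form in liver, and its probes were near the top of the intensity range. On the probe ILMN_3115917 the controls gave 42506 and 43105 units and the knockouts 26418 and 34504 units, on arrays whose brightest probes lay between 64731 and 72709 units. The difference was -0.48 (SE 0.22), or 1.40-fold lower. On ILMN_1214998 the controls gave 35406 and 34374 units and the knockouts 21638 and 23836 units. On ILMN_2774160 the values were 33353 and 29910 units against 17059 and 21311 units. The 3 probes pointed the same way without overlap between groups, with differences of -0.60 (SE 0.19) and -0.65 (SE 0.22) on the latter pair. The controls were nearly equal on the first probe (a gap of -0.03 in log2 intensity), while the knockouts were 0.45 apart. Without knockout replicate 1 the difference was -0.26 and without knockout replicate 2 it was -0.71. A 4th probe was detected on 1 knockout array only.

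H6pd, the enzyme of the endoplasmic reticulum that supplies the NADPH for Hsd11b1, pointed the other way. Its scanner intensities were 7942 and 8337 units in control and 13546 and 9779 units in knockout, both above both controls, with a difference of 0.54 (SE 0.23, limma adjusted p = 0.324) that did not pass the test. Hsd11b2, which inactivates corticosterone in kidney, was detected on 0 of 4 arrays.

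The probe of Hsd17b2, whose enzyme oxidises oestradiol and testosterone to weaker forms, showed no separation of the groups. It gave 3818 and 4059 units in control and 4619 and 3336 units in knockout, so that the knockouts lay on either side of the controls. The difference was -0.06 (SE 0.23), and its sign changed in 2 of the fits that left out an array.

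Hsd17b11 encodes an enzyme of lipid droplets that oxidises androstanediol to androsterone. On the probe ILMN_2705361 the controls gave 3708 and 2708 units and the knockouts 2089 and 1916 units. On ILMN_2642985 they gave 1207 and 967 units against 649 and 811 units. The dimmest, ILMN_2685234, gave 345 and 377 units against 262 and 311 units. On all 3 probes both knockouts lay below both controls, and the differences were -0.80 (SE 0.22), -0.86 (SE 0.24) and -1.01 (SE 0.28). After Hsd3b5 this was the lowest difference among the measured members, ranking 271st of 8579 from the lowest. Left out in turn, each array moved it within -1.01 to -0.58. Hsd17b13, its neighbour on chromosome 5 and a further lipid droplet enzyme of hepatocytes, is one of the genes without a listed probe.

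**Figure D2:**
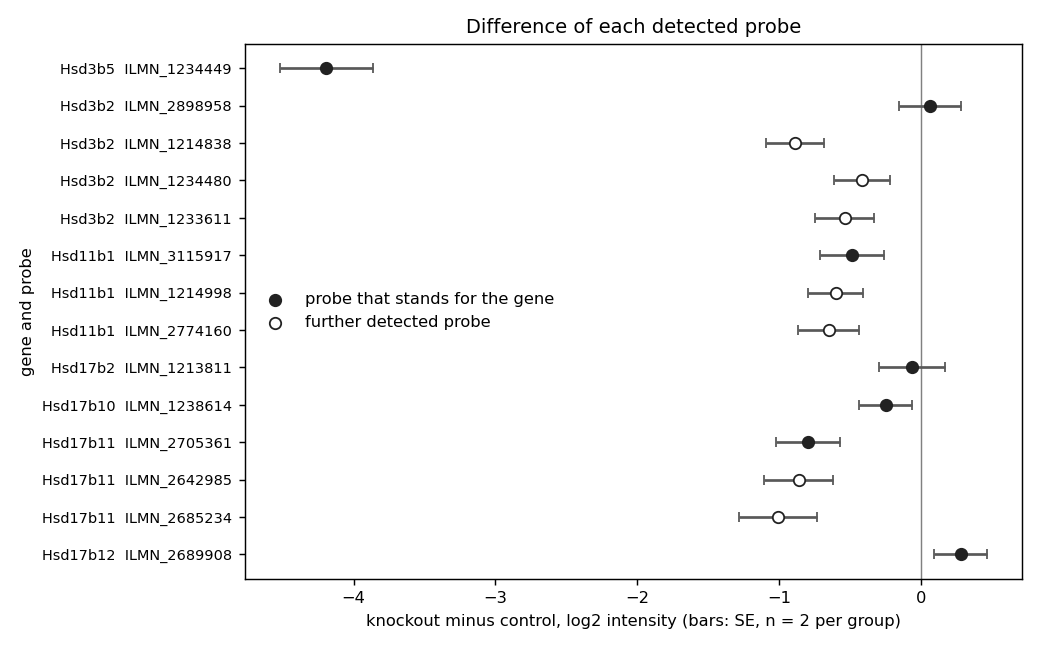
Difference between knockout and control in normalized log2 intensity (horizontal axis, bars show the SE, n = 2 per group) for the 14 member probes that passed detection, with the probe that stands for its gene filled. The 3 probes of Hsd17b11 and the 3 of Hsd11b1 lie together below 0, while those of Hsd3b2 run from -0.89 to 0.06.

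Hsd17b12 encodes the ketoacyl-CoA reductase of fatty acid elongation in the endoplasmic reticulum, and it also reduces oestrone. Its probe gave 4560 and 4569 units in control and 5903 and 5311 units in knockout. It was the only measured member with both knockouts above both controls, with a difference of 0.28 (SE 0.18), or 1.21-fold. Its controls differed by 0.07 in log2 intensity and its knockouts by -0.14 (replicate 2 minus replicate 1).

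Hsd17b10 encodes a mitochondrial enzyme of isoleucine breakdown that is also a subunit of mitochondrial RNase P. Its probe gave 10657 and 11683 units in control and 9378 and 9181 units in knockout. The groups did not overlap, but the difference was small, at -0.25 (SE 0.18).

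Of the 7 measured members, 5 had a difference below 0 and 2 above 0, with a median of -0.25 beside a median of 0.00 over all 8579 genes. All 7 had a probe detected on every array, so that no member passed detection through 1 group alone. One member, Hsd3b5, was called by limma at an adjusted p under 0.05 (1 of 7, beside 0.793% of all genes), which restates the choice of the group. Without knockout replicate 1 or without knockout replicate 2 the number of members called was 0. In those limma fits 0 genes of the whole array were called, with 1070 and 1365 genes at an unadjusted p under 0.05. The groups did not overlap in 5 of the 7 (beside 48.5% of all genes), with the knockouts lower in 4 (beside 23.6%) and higher in 1 (beside 24.9%). Nothing is read from these counts, since the contrast between the groups entered the choice of the members.

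**Figure D3:**
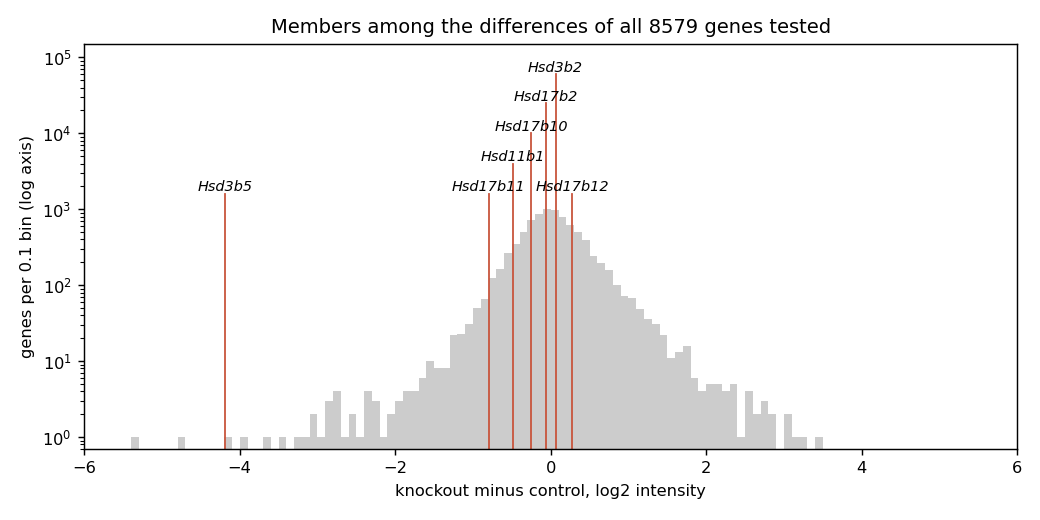
Histogram of the difference between knockout and control in normalized log2 intensity over the 8579 genes tested (genes per bin on a log axis), with a red line at each of the 7 measured members (line heights only separate the names). Hsd3b5 lies at -4.19 in the sparse left tail, and the other members lie between -0.80 and 0.28.

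By pattern over the 4 arrays, 5 genes of 8578 others lay nearest to Hsd3b5 (Euclidean distance of log2 values centred on each gene's mean). Of these, the acyl-CoA thioesterase gene Acot4 at a distance of 1.22 and the translation inhibitor gene Eif4ebp3 at 1.29 were detected on both knockout arrays, and the ferritin receptor gene Scara5 at 1.24 on 1. The other members of the 5 were Twistnb, a subunit of RNA polymerase I, and Epm2aip1, whose distances rest on knockout values below background and are not ranked. With 4 arrays, this likeness is that of large differences in the same direction. Twistnb was at least 6.89-fold and Epm2aip1 at least 10.2-fold lower in knockout.

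Among 22 further genes of the hydroxysteroid dehydrogenase and steroid reductase families, 20 had a probe and 12 were tested. Of these 12, 1 rose and 0 fell at an adjusted p under 0.05, beside 0.455% and 0.338% of all genes, and 3 were higher and 0 lower at an unadjusted limma p under 0.05. Akr1c18, the aldo-keto reductase that inactivates progesterone, gave 194 and 216 units in control, not above background, and 423 and 479 units in knockout. It was at least 4.05-fold higher (limma adjusted p = 0.0136), a call that rests on control values below background, since the gene passed detection through the knockout arrays alone. With detection required on all 4 arrays, 0 genes of the family were called. The call was lost without knockout replicate 1 (adjusted p = 0.105) and without knockout replicate 2 (adjusted p = 0.0696). Over the family, 10 of 12 differences lay above 0 and 2 below, with a median of 0.42 beside 0.00 for all genes. Without the filter on detection, the median was 0.18.

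Next by p came 3 enzymes known from bile acid or cholesterol synthesis. Hsd3b7, which acts on 7-alpha-hydroxylated sterols in bile acid synthesis, gave 21787 and 25924 units in control and 45326 and 40136 units in knockout. Its difference was 0.89 (SE 0.20, adjusted p = 0.142), and 0.69 (SE 0.20) on a further probe. Hsd17b7, a ketosteroid reductase of cholesterol synthesis, gave 6522 and 6565 units against 10581 and 14220 units, a difference of 0.93 (SE 0.22, adjusted p = 0.154). Both knockouts lay above both controls for each gene, and neither passed the test, although both did without background correction (adjusted p = 0.0214 and 0.0329) and with an intensity trend in limma (0.00987 and 0.0197). Nsdhl, a sterol dehydrogenase of the same pathway, differed by 1.06 (SE 0.43, adjusted p = 0.313) on its brightest probe. There knockout replicate 2 was at 2469 units and knockout replicate 1 at 1225. The other Nsdhl probes differed by 1.05 (SE 0.27), 0.62 (SE 0.42) and 0.56 (SE 0.61), with overlap between the groups at 0.62 and 0.56.

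Other enzymes of the family differed less. Akr1c14, a ketosteroid reductase, differed by 0.47 (SE 0.33) on its brightest probe and by 0.28 (SE 0.69) on a further probe. Hsd17b6, which oxidises androstanediol, differed by 0.38 (SE 0.29). Hsd17b4, the peroxisomal bifunctional enzyme, differed by 0.16 (SE 0.23), and Srd5a3, the polyprenol reductase, by 0.19 (SE 0.17) on its brightest probe and by 0.40 (SE 0.18) and 0.51 (SE 0.19) on its other probes. Hsdl1 differed by 0.19 (SE 0.26), Hsd17b14 by -0.16 (SE 0.20) and Hsd17b1, the oestrone reductase, by -0.30 (SE 0.48). None passed the test. Hsd17b14 and Hsd17b1 lay near background, at log2 intensities of 5.85 to 6.23 and of 5.45 to 6.78. Hsd17b1 was detected on 1 array of each group. Akr1d1, the 5-beta-reductase, and Akr1c6 were each detected on 1 array by a single probe, and Hsd17b3 and Hsdl2 on none. These probe results do not show that a transcript is absent from liver. Hsd17b8 and Srd5a2 had no listed probe.

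Genes around these enzymes were taken from lists chosen for their roles. Some tested genes stand on several lists, so that counts and medians of those lists are not separate observations. Cyp7b1, Cyp2d9 and Ugt2b1 are on the steroid hydroxylation and male-biased lists. Elovl3 is on the male-biased and elongation lists, and Cyp17a1 on the steroid synthesis and female-biased lists. Counts at an unadjusted p under 0.05 are to be read against the 16.4% of all genes that reached it in either direction, and counts of calls against 0.338% of all genes lower and 0.455% higher. Of 5 tested genes of steroid synthesis, 0 passed, with Cyb5b, a mitochondrial cytochrome b5, at 0.53 (SE 0.17, adjusted p = 0.235) and Cyp17a1 at -0.18 (SE 0.57). Of 18 tested genes that hydroxylate or conjugate steroids, 0 passed by limma, and 0 were higher and 3 lower at an unadjusted p under 0.05, a share near that of all genes. Their median was -0.22 beside 0.00 for all genes, and it ran from -0.37 without knockout replicate 2 to -0.12 without knockout replicate 1. Cyp2d9, a 16-alpha-hydroxylase of testosterone in male mouse liver, had log2 intensities of 15.50 and 15.67 in control and 14.85 and 14.56 in knockout, a difference of -0.88 (SE 0.20, adjusted p = 0.146). The sulfotransferase gene Sult1d1 differed by -1.26 (SE 0.44, adjusted p = 0.262), the glucuronosyltransferase gene Ugt2a3 by -0.47 (SE 0.18, adjusted p = 0.293) and Cyp7b1, which hydroxylates oxysterols and androgens, by -1.19 (SE 0.51, adjusted p = 0.335).

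Of 5 tested steroid receptors and carriers, 0 passed by limma, and 0 were higher and 3 lower at an unadjusted p under 0.05. Their median was -0.73, and -0.53 without background correction. With single arrays left out it ran from -0.89 (control replicate 2) to -0.55 (control replicate 1). The list had 1 call without background correction and 2 with an intensity trend. Nr1i3, the receptor CAR, differed by -0.80 (SE 0.21, adjusted p = 0.171), Serpina6, the corticosteroid carrier of blood, by -0.76 (SE 0.22, adjusted p = 0.197), Esr1, the oestrogen receptor, by -0.73 (SE 0.29, adjusted p = 0.300) and Nr1i2, the receptor PXR, by -0.62 (SE 0.25, adjusted p = 0.307). Serpina6 gave log2 intensities of 13.52 and 13.10 in control and 12.46 and 12.62 in knockout, without overlap. Nr3c1, the glucocorticoid receptor, was detected on 0 of 4 arrays by its 1 probe. The single probes of Fgb, from the hepatocyte marker list, and of Tat, from the glucocorticoid-induced list, were also detected on 0 of 4. An undetected probe therefore does not show that the RNA is absent from liver.

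Of 14 tested genes induced by glucocorticoids, the hormones that Hsd11b1 regenerates, 3 fell and 0 rose at a limma adjusted p under 0.05. Their median was -0.38, with 11 differences below 0 and 3 above. In other settings the median ran from -0.51 without control replicate 1 to -0.24 without control replicate 2, and was -0.26 without background correction. From the deposited processed intensities 1 gene of the list was called. Lpin1, a phosphatidate phosphatase, had a difference of -3.08 (SE 0.19, adjusted p = 0.0136). Fkbp5, a co-chaperone of steroid receptors, had one of -2.72 (SE 0.25, adjusted p = 0.0261), and Tsc22d3, the leucine zipper protein GILZ, one of -1.58 (SE 0.18, adjusted p = 0.0424). Tsc22d3 gave log2 intensities of 13.10 and 13.24 in control and 11.57 and 11.61 in knockout. Cdkn1a differed by -1.88 (SE 0.37, adjusted p = 0.116), while Pck1 (-0.08, SE 0.22) and Sgk1 (0.02, SE 0.24) overlapped between groups. Klf9 went the other way, with both knockouts above both controls and a difference of 0.49 (SE 0.21, limma adjusted p = 0.339). Tsc22d3 lost its call with each array left out (adjusted p from 0.0958 to 0.188), from the deposited processed intensities (0.0803) and when probes of a gene were tested singly (0.0565). The call was lost for Lpin1 without knockout replicate 1 (0.105) or 2 (0.0696). Fkbp5 lost it without control replicate 1 (0.0583), knockout replicate 1 (0.136) or knockout replicate 2 (0.0709), and also with the deposited processed intensities (0.0717).

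**Figure D4:**
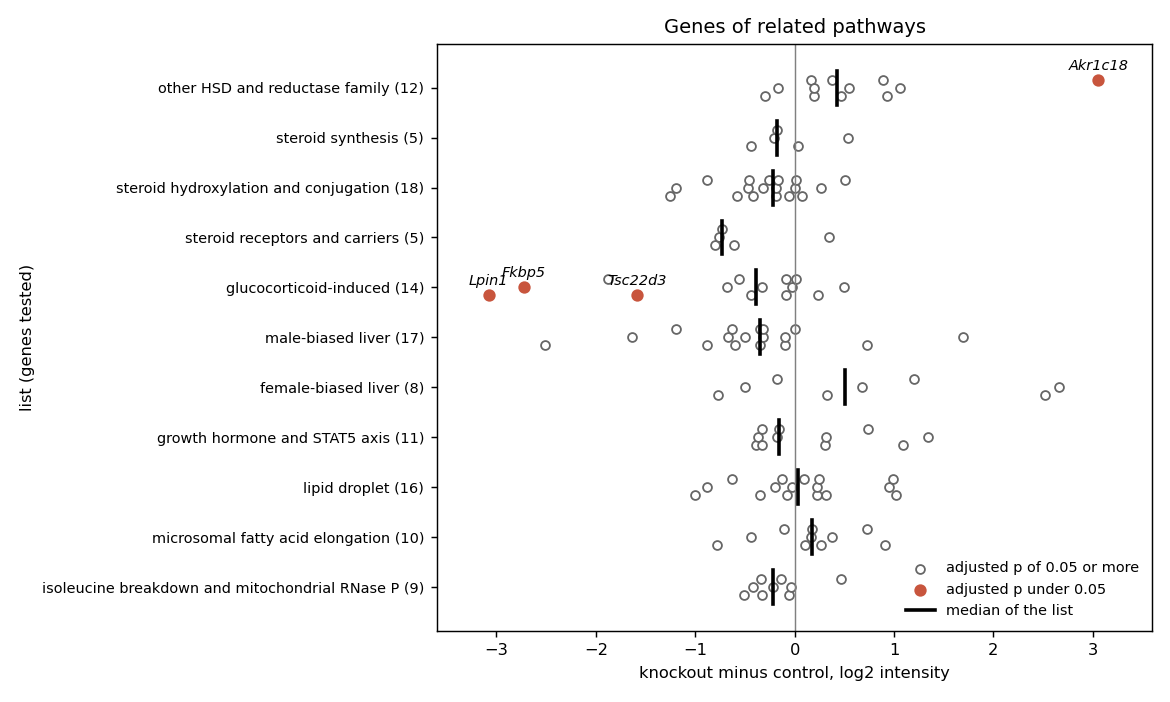
Difference between knockout and control in normalized log2 intensity (horizontal axis) for each tested gene of 11 related lists (rows, number of tested genes in brackets), with genes at a limma adjusted p under 0.05 filled and a black bar at each list's median. The filled genes are Akr1c18, whose fitted value rests on controls not above background, and Fkbp5, Lpin1 and Tsc22d3 among the glucocorticoid-induced genes.

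Since Hsd3b5 is expressed mainly in male liver, sex-biased genes were set beside it. Of 17 tested male-biased genes other than Hsd3b5, 0 passed by limma, 2 were higher and 5 lower at an unadjusted p under 0.05, and 15 of 17 lay below 0. Their median was -0.35, with -0.64 without control replicate 1 and -0.18 without control replicate 2. The list had 4 calls without background correction and with an intensity trend, 2 with an offset of 50 and 1 with detection on all 4 arrays. Selenbp2 differed by -1.63 (SE 0.32, adjusted p = 0.116) and Susd4 by -2.51 (SE 0.53, adjusted p = 0.134), against 1.69 (SE 0.25, adjusted p = 0.0668) for the hydroxylase gene Cyp4a12b and 0.73 (SE 0.18, adjusted p = 0.160) for the elongase gene Elovl3. Cyp4a12a, the close relative of Cyp4a12b, differed by -0.10 (SE 0.18). Of 8 tested female-biased genes, 0 passed, and 3 were higher and 1 lower at an unadjusted p under 0.05. Their median was 0.50, with 0.20 without control replicate 2, 0.15 without background correction and 0.94 at a detection p under 0.01. Without background correction 1 of them was called, and with an intensity trend 2. Cyp4a14 differed by 2.51 (SE 0.51, adjusted p = 0.126), Cyp2b9, detected on 1 of the 2 control arrays, by 2.66 (SE 0.69, adjusted p = 0.171), and Acot3 by 1.20 (SE 0.33, adjusted p = 0.183), while Lifr differed by -0.77 (SE 0.27, adjusted p = 0.254). The Y-linked Eif2s3y and Kdm5d were detected on every array and Xist on none. Uty, a further Y-linked gene, was detected on both control arrays and on 1 knockout array. Its probe lay near background, at log2 intensities of 5.36 to 6.70, and differed by -0.97 (SE 0.25, limma adjusted p = 0.167).

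The axis by which growth hormone and STAT5 set sex-biased liver genes had 0 of 11 tested genes past the test (2 higher and 0 lower at an unadjusted p under 0.05, a share near that of all genes). The sign of their median, -0.16, depended on single arrays, with 0.28 without control replicate 1, -0.08 without control replicate 2, 0.16 without knockout replicate 1 and 0.04 without knockout replicate 2. Socs2, an inhibitor induced by growth hormone, differed by 1.34 (SE 0.31, adjusted p = 0.149) and Bcl6, a transcriptional repressor, by 1.09 (SE 0.40, adjusted p = 0.282). The growth hormone receptor gene Ghr differed by -0.18 (SE 0.18).

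The partners of the enzymes that act on lipids gave 0 called genes. Of 16 tested lipid droplet genes, which share their organelle with Hsd17b11, 0 passed (1 higher and 2 lower at an unadjusted p under 0.05, a share near that of all genes), and 2 were called with an intensity trend. Their median was 0.03, and its sign changed when single arrays were left out (from -0.04 to 0.09). Plin5 had log2 intensities of 11.85 and 11.41 in control and 10.89 and 10.37 in knockout (adjusted p = 0.179). Fitm1 differed by 0.99 (SE 0.30, adjusted p = 0.211) and Dgat2 by -0.63 (SE 0.20, adjusted p = 0.235). Of 10 tested genes of microsomal fatty acid elongation, the pathway of Hsd17b12, 0 passed (2 higher and 1 lower unadjusted, median 0.17), with the elongases Elovl5 at 0.90 (SE 0.23) and Elovl6 at -0.78 (SE 0.26). The enoyl reductase gene Tecr, which follows Hsd17b12 in that cycle, differed by 0.17 (SE 0.20). Of 9 tested genes of isoleucine breakdown and mitochondrial RNase P, which hold the partners of Hsd17b10, 0 passed (0 higher and 1 lower unadjusted), and 8 of 9 lay below 0, with a median of -0.22 that was -0.35 without control replicate 1, -0.14 without control replicate 2 and -0.13 without knockout replicate 1. Trmt10c, a further subunit of that RNase P, differed by -0.41 (SE 0.21) and Bckdhb, a subunit of the branched-chain ketoacid dehydrogenase, by -0.51 (SE 0.18, adjusted p = 0.254).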

How the data were processed

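Liver RNA of 2 control and 2 knockout samples was measured on Illumina arrays, with 500 ng of RNA amplified per sample per the labels' protocols. The authors deposited a table with the mean bead intensity of each of 25697 probes and a detection p-value per array; per the file headers these are AVG_Signal and Detection Pval, and the equal array means show that intensity had been scaled. A further deposited table holds processed intensity on a linear scale, partly below 0; how it was made is not stated in the labels, it ranks probes as the scanner table does (Spearman correlation 1), and it served as an alternative only. Rows without a probe identifier, 4 in number, were left out.

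Normalization used limma 3.58.1 under R 4.3.3, function neqc (background from detection p, offset 16, quantile, log2). A probe passed at detection p under 0.05 on at least 2 arrays, which held for 12197 probes. The brightest passing probe stood for its gene, which left 8579 genes, beside 732 probes lacking a symbol. The contrast of the groups was tested with lmFit and eBayes, two-sided, with Benjamini-Hochberg adjustment over all 9311 rows; the model had 2 residual degrees of freedom plus 3.37 from the prior. The SE of a probe that does not stand for its gene comes from the fit of all passing probes. Where neither array of a group detected a probe, the fold is a bound. The brighter group's mean log2 value is then set against the dim group's, each dim array entering with its probe's value or its lowest detected value, whichever is larger. The fit was tested on simulated data. Levels of different probes are not compared. The 4 arrays lay on 1 BeadChip with controls and knockouts at separate positions, so position and group cannot be told apart, and the number of arrays limits the precision.

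Members and lists were chosen with earlier results of these data known. Genes named are all members and family genes, Ptpn11, called list genes, up to 4 genes per list with the smallest p, and the 5 nearest to Hsd3b5. Further list genes were added after values were seen, Cyp17a1, Pck1, Sgk1, Cyp4a12a, Ghr and Tecr for their roles and Klf9 for its direction. Cell type markers, undetected genes and genes shared between lists were named apart from this rule. Promoter sequences are from RefSeq, GRCm38.p6, and were aligned with Biopython 1.88.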

Additional observations from a re-analysis of the deposited data

How the results depend on the processing

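Over the 11 alternatives that kept all arrays, the difference of Hsd3b5 lay between -4.19 and -3.68, that of Hsd11b1 between -0.58 and -0.48, that of Hsd17b10 between -0.28 and -0.24, that of Hsd17b11 between -0.89 and -0.73 and that of Hsd17b12 between 0.27 and 0.30, none changing sign. Hsd3b2 changed sign with the mean of its probes (-0.44) and without knockout replicate 1 (-0.13), and Hsd17b2 ran from -0.30 to 0.17 when single arrays were left out. The number of called genes was 292 (174 higher, 118 lower) without background correction, 144 (82 and 62) with an offset of 50, 13 (5 and 8) from the deposited processed intensities, 39 (18 higher) with every probe tested on its own, and 309 (183 and 126) with an intensity trend in eBayes, against 68 (39 and 29) as reported. With each array left out in turn it ran from 0 to 25 (0 to 12 higher, 0 to 15 lower), where the lone sample of a group is assumed to vary like the other group. Members called numbered 0 from the deposited intensities, 2 with the intensity trend (Hsd3b5 and Hsd17b11) and 0 to 1 when an array was left out. The call of Akr1c18 could not be made with detection required on all 4 arrays. No paired analysis was possible because the control labels carry no replicate number.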
